A study of Homo sapiens with 10 samples.

Results

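The mRNAs of 10 nuclear genes whose products fold, cut or package the contents of the mitochondrion were followed in prostate cancer cells with lowered or raised CPT1A, the enzyme that loads long-chain fatty acids onto carnitine for entry into mitochondria. The genes were picked by name for their function and not by a rule on their values, but earlier results of these data were known. They were the chaperones HSPD1, HSPE1, HSPA9, DNAJA3 and TRAP1, the proteases LONP1, CLPP, CLPX and YME1L1, and TFAM, the protein that packages mitochondrial DNA. All 10 had a line among the 57353 genes of the count table, and all 10 passed the expression filter that left 17230 genes for testing. The cells were LNCaP-C4-2, a castration-resistant line derived from LNCaP, grown in medium with serum. They were transduced with lentivirus carrying a control shRNA that is called scrambled or non-targeting (NT, n = 2), an shRNA against CPT1A (KD, n = 3), an empty vector (EV, n = 2) or CPT1A cDNA (OE, n = 3). Per the labels, NT and KD cells were selected with 1 µg/ml puromycin and EV and OE cells with 5 µg/ml blasticidin. Only 1 shRNA and 1 line of each kind are described, and nothing says that the samples of a line were separate cultures, so the p values measure only the spread between these samples, which may be technical. The counts do not tell the introduced CPT1A copy from the cell's own gene.

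Nearly all mitochondrial proteins are made in the cytosol and threaded unfolded into the matrix, where HSPA9 pulls them in and the chaperonin made of HSPD1 and HSPE1 encloses and folds them. Proteins that fail to fold are cut by the ATP-driven proteases of the matrix, LONP1 and the CLPX-CLPP complex, or, at the inner membrane, by YME1L1. Mitochondrial stress is known to raise chaperone and protease genes of the nucleus, and factors such as NRF1 are known to drive many nuclear genes for mitochondrial proteins.

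The promoters show what several of the genes have in common in the DNA. HSPD1 and HSPE1 lie head to head on chromosome 2 and share the short stretch between their starts, so it is shown whole. The other stretches are shown because they hold the core of the NRF1 motif, CGCNTGCGC, on either strand. Capitals mark that motif or the E-box CACGTG. The sequences are RefSeq's for GRCh38.p14, written 5′ to 3′, the interval on the plus strand and the others on the strand of their gene. The interval is chr2:197500275-197500378, TFAM is chr10:58385328-58385366 (plus strand), CLPX is chr15:65185414-65185452 (minus strand), DNAJA3 is chr16:4425762-4425817 (plus strand) and LONP1 is chr19:5720633-5720672 (minus strand).
HSPD1-HSPE1 interval: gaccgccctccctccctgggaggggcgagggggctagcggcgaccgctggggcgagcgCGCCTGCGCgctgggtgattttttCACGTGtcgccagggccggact
TFAM: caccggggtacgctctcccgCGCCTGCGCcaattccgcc
CLPX: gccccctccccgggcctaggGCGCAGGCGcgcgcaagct
DNAJA3: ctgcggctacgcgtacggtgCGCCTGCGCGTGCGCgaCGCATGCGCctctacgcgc
LONP1: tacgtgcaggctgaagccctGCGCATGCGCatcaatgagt

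The interval was 104 bases long, and its single NRF1 motif lay at positions -67 to -59 from the HSPD1 start and -46 to -38 from the HSPE1 start. In DNAJA3, motifs at -86 to -78 and -80 to -72 overlap each other, and others lie at -69 to -61 and, outside the stretch shown, at -13 to -5. Motifs were searched on both strands in windows from 250 bases before to 50 bases after a RefSeq start. The 8 members that matched the promoter table had 10 such windows. CGCNTGCGC was found in 6 of the 10 (HSPD1, HSPE1, DNAJA3, LONP1, CLPX and TFAM), and in 7.52% of all 35116 windows. HSPD1 and HSPE1 owe it to the same bases. The E-box CACGTG was found in 4 of the 10 (HSPD1, HSPE1, HSPA9 and LONP1) against 7.26% of all windows. Again HSPD1 and HSPE1 owe it to the same bases, and in LONP1 it lies at another start than the NRF1 motif. The heat shock element GAANNTTC was found in 1 of the 10, at a second start of HSPD1, against 6.77%. TGATGNAA, the core of the C/EBP-ATF response element, was found in 0 of the 10 against 3.62%. These motifs were chosen after the sequences were read, and a match describes letters, not binding. As shown next, the members that hold the NRF1 motif moved in both directions.

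Total counts per sample ranged from 23555205 to 28615770. CPT1A, given as counts relative to library size after TMM scaling (CPM), was 265.5 and 261.7 in the NT samples, 81.2, 86.4 and 86.2 in KD, 325.7 and 317.7 in EV, and 870, 914 and 861 in OE. The targeted gene thus went the way of the labels in every sample. The 7 markers of prostate luminal epithelium used, KLK3 among them, were each at 322 CPM or more in every sample, and their sum was 5432 to 5712 CPM for NT, 7571 to 8340 for KD, 7217 to 7591 for EV and 10457 to 10899 for OE. KRT5, COL1A2, CD3E and PECAM1, which mark basal cells, fibroblasts, T cells and endothelium, were at 0 counts in all 10 samples, but other genes of those lists were not. COL1A1 was at 8.46 to 15.6 CPM, PDGFRB at 1.06 to 2.91, VWF at 6.28 to 9.46, and KRT14 reached 47 counts. The sum of the 3 fibroblast markers was 10.2 to 11.7 CPM for NT, 17.0 to 18.2 for KD, 10.2 to 11.3 for EV and 13.4 to 15.7 for OE, and its part in the results was not tested. The spread between samples of a line exceeded counting error (chi-square divided by its degrees of freedom, 2.08 to 7.29), most of all in pairs with KD replicate 2. In such bulk samples, fewer cells with an mRNA and less of it per cell cannot be told apart.

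Per kilobase of annotated exon, HSPD1 was the most abundant member, at a mean of 134.6 CPM per kb over the 10 samples. LONP1 followed at 69.3 and TRAP1 at 66.7, then HSPA9 at 48.0, CLPP at 31.7 and DNAJA3 at 23.8 CPM per kb. CLPX (12.4), YME1L1 (12.2), HSPE1 (8.74) and TFAM (7.22 CPM per kb) were the lowest, and CLPX and YME1L1 were nearly level, as were HSPE1 at 8.84 ± 0.125 and TFAM at 8.85 ± 0.150 CPM per kb in NT (SD, n = 2). The lengths used cover all annotated exons, 1823 bases for HSPE1 and 5183 for TRAP1, against canonical transcripts of 557 and 2223 bases. For TFAM they were 5282 and 5025. Ranks of members, and the near equality of HSPE1 and TFAM, thus depend on the length chosen, and canonical lengths were not used. The order changed between lines. HSPA9, at 63.6 ± 2.17 CPM per kb in NT, stood above TRAP1 at 50.3 ± 1.69, whereas in KD it was at 37.7 ± 0.68 and TRAP1 at 70.3 ± 4.14 (SD, n = 3).

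**Figure D1:**
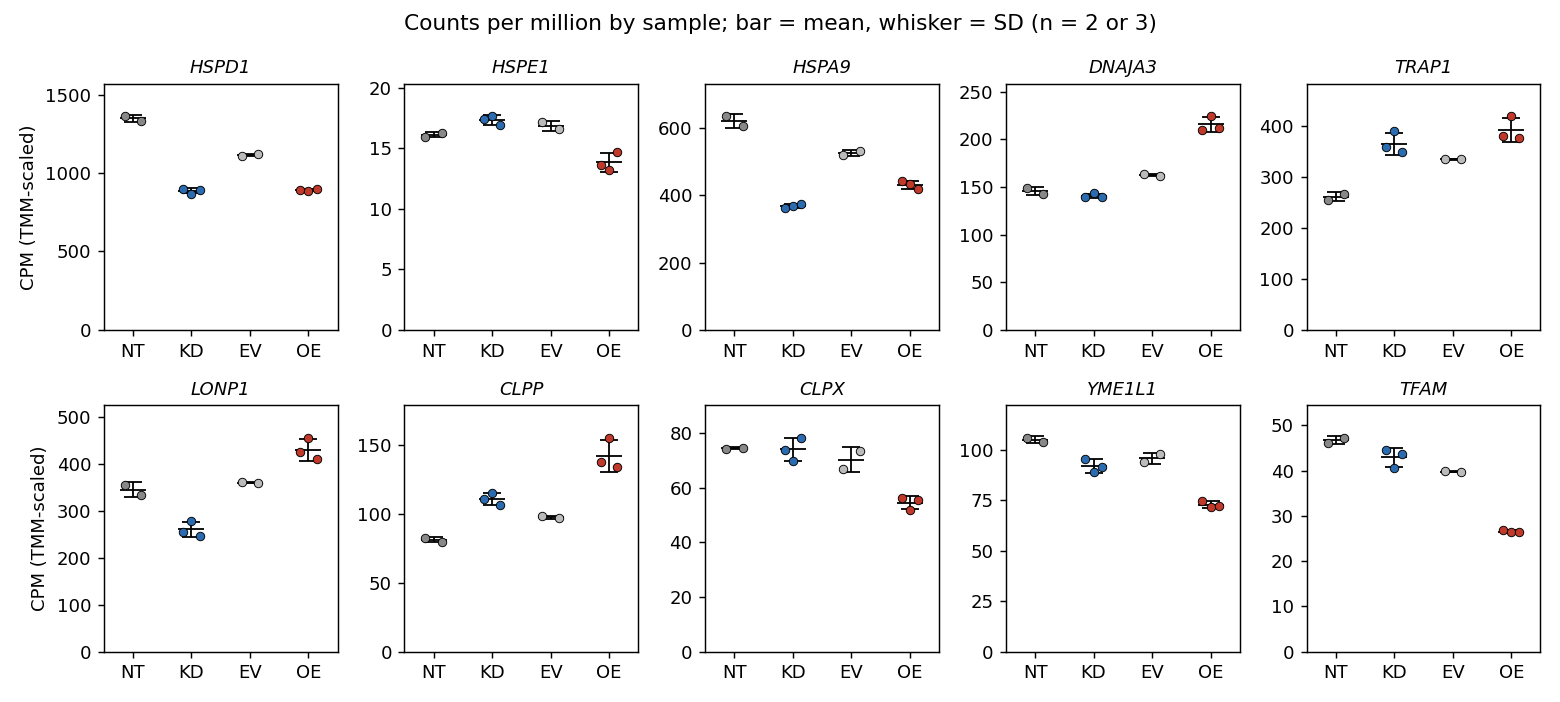
CPM after TMM scaling (vertical axis, from 0) of the 10 members in each sample, by line (NT, KD, EV, OE). Points are samples, the bar is the mean and the whisker the SD. HSPD1 and HSPA9 are highest in the NT samples, TFAM is lowest in the OE samples and LONP1 is lowest in the KD samples.

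In OE versus EV all 10 members passed at an adjusted p under 0.05 (edgeR quasi-likelihood test, Benjamini-Hochberg over 17230 genes), 4 higher and 6 lower, against 52% of all tested genes. CLPP, DNAJA3, LONP1 and TRAP1 rose, and TFAM, YME1L1, CLPX, HSPD1, HSPA9 and HSPE1 fell. At the adjusted p of 0.0001, 7 members passed, 2 higher and 5 lower, against 21.9% of all tested genes. The median member log2 fold change was -0.28, beside -0.02 for all genes, and the changes were modest, from 1.46-fold higher (CLPP) to 1.5-fold lower (TFAM). The CPM of the OE and EV samples did not overlap for 10 of 10 members, against 68.9% of all tested genes. The 2 control lines, EV and NT, with 2 samples each, did not overlap for 10 of 10 members either. Their share over all genes was not computed, so this count is not read as a result about the members. It includes 4 that did not pass between these lines at 0.05, CLPX (-0.08, adjusted p = 0.342) among them.

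In KD versus NT, 6 of the 10 passed at 0.05, 2 higher and 4 lower, against 57.5% of all tested genes, a share close to the background. HSPA9, HSPD1, LONP1 and YME1L1 fell, and TRAP1 and CLPP rose. At 0.0001, 5 passed, 2 higher and 3 lower, against 29.1%. The median member log2 fold change was -0.09, beside -0.02 for all genes. The CPM of the KD and NT samples did not overlap for 8 of 10 members, against 70.6% of all tested genes, and the exceptions were DNAJA3 and CLPX.

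The direction in OE versus EV divided the members by the base composition of their transcripts. The 4 members whose canonical transcript was above the median GC content of tested genes (49.01%) were DNAJA3 (53.7%), CLPP (55.7%), TRAP1 (57.5%) and LONP1 (62.6%), and these are the 4 that rose. The 6 below it, from TFAM (36.0%) through HSPE1 (39.3%), YME1L1 (40.3%), CLPX (41.3%) and HSPD1 (41.7%) to HSPA9 (42.1%), are the 6 that fell. Other genes showed the same trend. Across the 14018 tested genes with a GC value (81.4% of those tested), the median log2 fold change of OE versus EV went from -0.38 in the lowest decile of GC content, with 87.8% of its genes below 0, to 0.29 in the highest, and Spearman's rho was 0.452 across genes, which are not independent replicates. In KD versus NT rho was 0.22, with medians of -0.27 in the lowest decile and 0.13 in the highest.

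When the trend of each sample on GC content was removed with an offset, which was added once the trend had been seen, only 3 members passed in OE versus EV, against 52.3% of the 14018 genes. These were CLPP at a log2 fold change of 0.44 (adjusted p = 6.41e-09), DNAJA3 at 0.33 (9.89e-08) and TFAM at -0.14 (0.0464). With the replicate block added to the offset, CLPP and DNAJA3 still passed, TFAM did not (-0.11, 0.141), and TRAP1 did (0.12, 0.0229). With the offset alone, HSPD1 was at -0.06 (0.206), HSPA9 at -0.05 (0.401) and HSPE1 at 0.05 (0.609). In that same fit without the block, TRAP1 was at 0.10 (0.0506), LONP1 at 0.08 (0.146), CLPX at -0.10 (0.0921) and YME1L1 at -0.09 (0.0907). Most of the member changes in OE versus EV thus moved with GC content, and whether that trend is technical or biological was not tested. The KD changes moved less. With the offset, 7 members passed in KD versus NT, against 63.8% of the 14018 genes, a share close to the background. HSPA9 (-0.66), HSPD1 (-0.50), LONP1 (-0.50) and DNAJA3 (-0.14) were lower, and TRAP1 (0.37), CLPP (0.34) and HSPE1 (0.26) were higher.

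**Figure D2:**
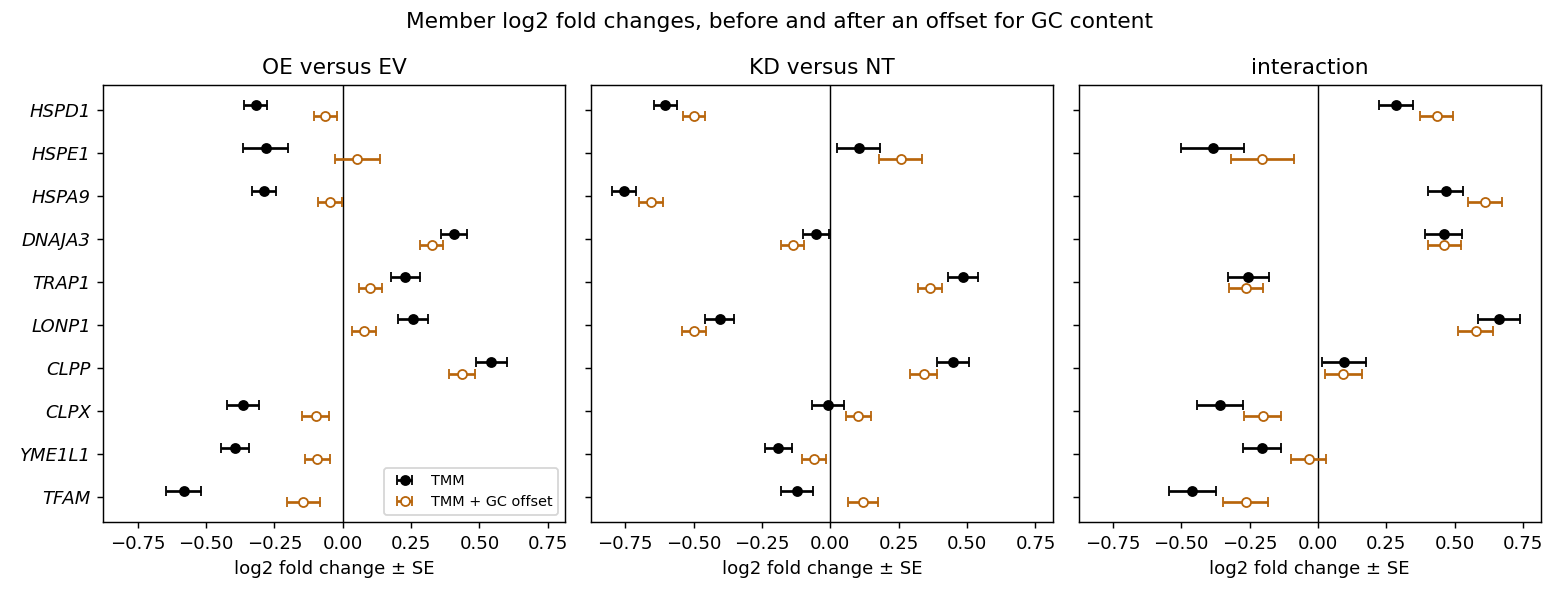
Log2 fold change with SE (horizontal axis) of each member in OE versus EV, KD versus NT and their difference (interaction), with TMM scaling (black) and with the GC offset added (open orange). In OE versus EV most points move toward 0 with the offset, HSPD1 from -0.32 to -0.06 and TFAM from -0.58 to -0.14, while HSPD1, HSPA9 and LONP1 stay below 0 in KD versus NT.

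The trend was present sample by sample. The median of the highest decile of GC content minus that of the lowest, each as log2 CPM relative to the mean of all samples, was -0.55 and -0.50 for NT, -0.19, 0.06 and -0.22 for KD, -0.09 and -0.14 for EV, and 0.51, 0.66 and 0.47 for OE. The mean of the 4 members above the median GC content was -0.23 and -0.26 for NT, -0.15, -0.06 and -0.18 for KD, -0.03 and -0.04 for EV, and 0.28, 0.41 and 0.26 for OE. Within OE and within KD, replicate 2 had the highest value of both measures.

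**Figure D3:**
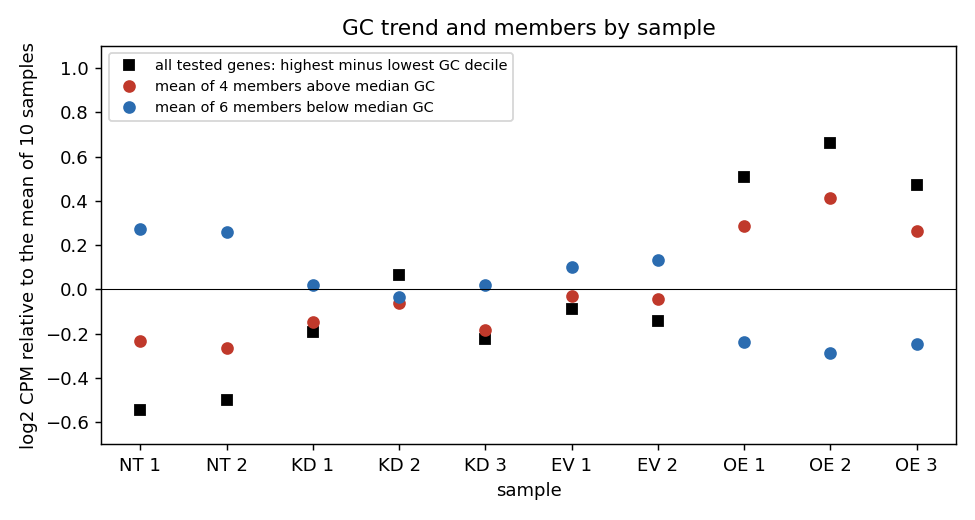
Log2 CPM relative to the mean of 10 samples (vertical axis) for each sample. Black squares are the median of the highest decile of GC content minus that of the lowest over all tested genes, red points the mean of the 4 members above the median GC content and blue points the mean of the 6 below it. The OE samples are highest in the first measure (0.47 to 0.66) and lowest in the blue points (-0.29 to -0.24).

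HSPD1 and HSPE1 are the ring and the lid of the mitochondrial chaperonin. HSPD1 (chromosome 2, 197486584 to 197516737, minus strand, GRCh38) was at 1365 and 1332 CPM in the NT samples, 900, 868 and 895 in the KD samples, 1110 and 1120 in EV and 893, 887 and 901 with OE. NT was the highest line and EV stood between it and the others, without overlap, while KD and OE overlapped. HSPD1 fell by 0.60 on the log2 scale in KD versus NT (SE 0.0428, adjusted p = 1.62e-11), a 1.52-fold lower level. In OE versus EV it fell by 0.32 (SE 0.0430, 1.33e-06), the value that went to -0.06 with the GC offset. HSPD1 was thus higher in each control line than in the line it was the control for.

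HSPE1 (chromosome 2, 197500140 to 197503449, plus strand) was at 15.96 and 16.28 CPM in the NT samples, 17.4, 17.7 and 16.9 in the KD samples, 17.1 and 16.6 in EV and 13.6, 13.2 and 14.7 with OE. The OE samples lay below all others and the NT samples next, and KD and EV overlapped. HSPE1 fell by 0.28 in OE versus EV (SE 0.0823, adjusted p = 0.00606) and was at 0.10 in KD versus NT (SE 0.0800, 0.28). The first call was lost without EV replicate 1 (0.0753). Although the proteins work as partners and the genes share the stretch printed above, HSPD1 counts were 83.7 ± 2.66 times HSPE1 counts for NT (SD, n = 2), 51.3 ± 1.96 times for KD (n = 3), 66.2 ± 1.99 times for EV (n = 2) and 64.7 ± 3.03 times for OE (n = 3).

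The HSPE1 level, 292 to 510 counts a sample, is uncertain, because much of its transcript is not unique. Of its canonical transcript of 557 bases, 34.5% lies in exons of other genes, namely HSPD1 on the opposite strand and HSPE1-MOB4, a read-through on the same strand that was at 0 counts in all 10 samples. Of the 31-base windows of that transcript, 64.5% occur elsewhere in the genome, and 69.1% of those of HSPD1 do. The 17 processed pseudogenes of HSPD1 in the table summed to 34 to 73 counts a sample, 0.144% to 0.244% of the counts of gene and pseudogenes together, and the 26 of HSPE1 to 5 to 18 counts, 1.68% to 5.01%. How reads that fit several places were counted is not given in the sources used here, nor is whether strand was used, so their part in the HSPD1 and HSPE1 values was not tested.

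HSPA9 is the matrix chaperone that draws imported proteins inward, and DNAJA3 is a J-domain partner of it. HSPA9 (chromosome 5, 138553756 to 138575675, minus strand) was at 637 and 607 CPM in the NT samples, 362, 368 and 376 in the KD samples, 519 and 534 in EV and 443, 433 and 419 with OE. None of the 4 lines overlapped another. The fall of 0.75 in KD versus NT (SE 0.0443, adjusted p = 5.08e-13) was the largest change of any member in that comparison, a 1.69-fold lower level. In OE versus EV HSPA9 fell by 0.29 (SE 0.0447, 9.11e-06).

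DNAJA3 (chromosome 16, 4425805 to 4456775, plus strand) was at 148.6 and 143.0 CPM in the NT samples, 138.9, 143.4 and 139.6 in the KD samples, 163.4 and 161.8 in EV and 210.1, 224.7 and 212.2 with OE. OE stood above every other sample, and KD overlapped NT. DNAJA3 rose 1.33-fold in OE versus EV (log2 fold change 0.41, SE 0.0468, adjusted p = 1.29e-07) and was at -0.05 in KD versus NT (SE 0.0469, 0.357). The count of HSPA9 for each count of DNAJA3 was 4.27 ± 0.0306 for NT, 2.62 ± 0.0630 for KD, 3.24 ± 0.0851 for EV and 2.00 ± 0.0946 for OE (SD, n = 2 or 3), lower in KD than in NT through HSPA9 and lower in OE than in EV through both genes.

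TRAP1, the mitochondrial member of the HSP90 family (chromosome 16, 3651639 to 3717553, minus strand), was at 254 and 267 CPM in the NT samples, 357, 389 and 347 in KD, 334 in both EV samples, and 380, 419 and 376 in OE. NT lay below all other samples, and KD and OE overlapped. TRAP1 rose 1.40-fold in KD versus NT (log2 fold change 0.48, SE 0.0545, adjusted p = 4.98e-08) and 1.17-fold in OE versus EV (0.23, SE 0.0539, 0.000939). Of the bases of its canonical transcript, 39.0% lie in exons of other genes, DNASE1 on the opposite strand among them, and without a stated strand setting the reads of such bases cannot be told apart.

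LONP1, the main soluble protease of the matrix, was the member whose response to the 2 changes of CPT1A differed most with TMM scaling (interaction 0.66), and came after HSPA9 (0.61) with the GC offset (0.58). LONP1 (chromosome 19, 5691834 to 5720572, minus strand) was at 356 and 334 CPM in the NT samples, 256.1, 279 and 248 in the KD samples, 362 and 360 in EV and 425, 457 and 411 with OE. KD lay below and OE above every other sample. LONP1 fell by 0.40 in KD versus NT (SE 0.0535, adjusted p = 6.31e-07), a 1.32-fold lower level, and rose 1.19-fold in OE versus EV (0.26, SE 0.0539, 0.000309). The rise did not pass with the GC offset, at 0.08 (0.146), and the fall did, at -0.50. In EV versus NT it was at 0.06 (0.443).

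CLPP is the barrel of a matrix protease, and CLPX is the ATP-driven unfoldase that feeds it. CLPP (chromosome 19, 6361531 to 6370242, plus strand) was at 82.6 and 79.9 CPM in the NT samples, 111, 115 and 107 in the KD samples, 98.2 and 96.9 in EV and 137, 156 and 134.03 with OE. The 4 lines did not overlap, and both lines with changed CPT1A were above their controls. CLPP rose 1.46-fold in OE versus EV (log2 fold change 0.54, SE 0.0579, adjusted p = 4.13e-08) and 1.37-fold in KD versus NT (0.45, SE 0.0586, 4.95e-07). It was the only member without a difference between these changes past the threshold, at 0.09 (SE 0.0818, 0.369).

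CLPX (chromosome 15, 65148219 to 65185342, minus strand) was at 74.2 and 74.7 CPM in the NT samples, 73.9, 69.8 and 78.3 in the KD samples, 66.9 and 73.5 in EV and 56.1, 51.7 and 55.6 with OE. OE was below all other samples, and KD overlapped both control lines. CLPX fell by 0.36 in OE versus EV (SE 0.0600, adjusted p = 1.85e-05) and was at -0.007 in KD versus NT (SE 0.0585, 0.928). The count of CLPP for each count of CLPX was 1.09 ± 0.0305 for NT, 1.51 ± 0.145 for KD, 1.39 ± 0.106 for EV and 2.62 ± 0.334 for OE (SD, n = 2 or 3), and KD overlapped EV.

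YME1L1, the inner membrane protease that faces the intermembrane space (chromosome 10, 27110111 to 27155266, minus strand), was at 106.1 and 103.7 CPM in the NT samples, 95.4, 89.0 and 91.5 in the KD samples, 93.8 and 97.7 in EV and 74.7, 71.9 and 72.0 with OE. OE was the lowest and NT the highest line, with KD and EV overlapping between them. YME1L1 fell by 0.39 in OE versus EV (SE 0.0502, adjusted p = 5.94e-07) and by 0.19 in KD versus NT (SE 0.0492, 0.00196). With the GC offset it was at -0.06 (0.248) in KD versus NT.

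TFAM, which coats and bends mitochondrial DNA and starts its transcription (chromosome 10, 58385345 to 58399220, plus strand), was at 46.2 and 47.3 CPM in the NT samples, 44.6, 40.5 and 43.7 in the KD samples, 39.8 and 39.6 in EV and 26.9, 26.3 and 26.4 with OE. The OE samples lay close together and below all others, and KD lay between EV and NT without overlap. TFAM fell by 0.58 in OE versus EV (SE 0.0628, adjusted p = 5.05e-08), a 1.5-fold lower level, and was at -0.12 in KD versus NT (SE 0.0592, 0.0812), which became 0.12 (0.062) with the GC offset. It was the member with the lowest GC content, and its fall in OE versus EV kept its direction with the offset at a smaller size (-0.14).

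The members were compared with their neighbours on the chromosome, to see whether the genes around them moved alike. Within 5 Mb on each side, the median log2 fold change of OE versus EV was 0.39 over 170 genes around DNAJA3, 0.40 over 165 around TRAP1, 0.34 over 218 around LONP1 and 0.33 over 210 around CLPP. It was -0.23 over 38 genes around HSPD1 and HSPE1, -0.12 over 107 around HSPA9, -0.08 over 69 around CLPX, -0.18 over 34 around YME1L1 and 0.006 over 17 around TFAM. DNAJA3 and TRAP1 lie near each other on chromosome 16, and LONP1 and CLPP on chromosome 19, so their windows hold nearly the same genes and count as 2 regions, both with neighbours above 0. DNAJA3, TRAP1 and LONP1 were close to the median of their neighbours or below it. TFAM, at -0.58 in OE versus EV, stood below neighbours centred near 0. In KD versus NT it was at -0.12 and its 17 neighbours had a median of 0.19. In the interaction TFAM was at -0.46 and the median of these neighbours was -0.45. The part of chromosome segments or of their GC content in these values was not tested.

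The interaction, the change in OE versus EV minus the change in KD versus NT, passed for 9 of the 10 members at 0.05, 4 higher and 5 lower, against 44.3% of all tested genes, and for 3 at 0.0001, all higher, against 15.9%. LONP1 had the largest value, 0.66 (SE 0.0761, adjusted p = 1.58e-07), then HSPA9 at 0.47 (SE 0.0635, 1.85e-06) and DNAJA3 at 0.46 (SE 0.0660, 4.16e-06). The value of HSPD1 was 0.28 (SE 0.0612, 0.000515). HSPA9 and HSPD1 fell in both comparisons and more in KD, whereas LONP1 changed in opposite directions. The lower values were TFAM at -0.46 (0.000124), HSPE1 at -0.38 (0.00849), CLPX at -0.36 (0.00122), TRAP1 at -0.25 (0.00855) and YME1L1 at -0.20 (0.0216). With the GC offset, LONP1 (0.58), HSPA9 (0.61), DNAJA3 (0.46) and HSPD1 (0.43) stayed past the threshold, as did TFAM (-0.26), TRAP1 (-0.26) and CLPX (-0.20), while HSPE1 (-0.20, 0.138) and YME1L1 (-0.03, 0.69) did not. The calls of HSPE1, TRAP1 and YME1L1 each depended on single libraries: without EV replicate 1 the adjusted p was 0.0522 for HSPE1, 0.0508 for TRAP1 and 0.05 for YME1L1, without NT replicate 1 it was 0.0619 for TRAP1, and for YME1L1 it was 0.0883 without NT replicate 2, 0.0763 without KD replicate 1 and 0.112 without EV replicate 2.

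The control lines themselves differed. In EV versus NT, which differ in vector and selection drug, 6 members passed at 0.05, 3 higher and 3 lower, against 34.1% of all tested genes, and 2 at 0.0001, against 8.16%. TRAP1 (0.36, adjusted p = 4.73e-05), CLPP (0.26, 0.00251) and DNAJA3 (0.16, 0.0198) were higher in EV, and HSPD1 (-0.27, 7.92e-05), HSPA9 (-0.24, 0.000474) and TFAM (-0.23, 0.00739) were lower. TRAP1 was thus at 0.36 between the controls and at 0.23 between OE and EV, and HSPD1 at -0.27 and -0.32. The calls of DNAJA3 and TFAM depended on single libraries: the adjusted p was 0.169 for DNAJA3 and 0.065 for TFAM without NT replicate 2, 0.0771 and 0.0529 without EV replicate 2, and 0.152 for DNAJA3 without EV replicate 1. With the GC offset, DNAJA3 (0.08, 0.16) and TFAM (0.01, 0.895) did not pass and HSPE1 did (0.23, 0.0444). In OE versus KD, 8 members passed at 0.05, 4 higher and 4 lower, against 59.8%, and 7 at 0.0001, 4 higher and 3 lower, against 31.9%. LONP1 (0.72, 5.26e-12), DNAJA3 (0.62, 6.52e-12), CLPP (0.36, 1.51e-06) and HSPA9 (0.23, 3.35e-05) were higher in OE. TFAM (-0.69, 1.63e-10), CLPX (-0.44, 1.46e-07), YME1L1 (-0.34, 7.36e-07) and HSPE1 (-0.32, 0.000539) were lower, and HSPD1 was at 0.01 (0.842) and TRAP1 at 0.10 (0.064), or 0.15 (0.00253) without KD replicate 2 and 0.13 (0.0366) without OE replicate 3. With the GC offset, HSPD1 was higher in OE, at 0.27 (2.32e-07), while HSPE1, at 0.02 (0.809), and YME1L1, at -0.03 (0.599), did not pass. EV versus NT shares its samples with the comparisons of OE with EV and KD with NT, and OE versus KD mixes the effect of CPT1A with that of the vectors, which cannot be told apart.

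Companion genes of the same processes were counted in lists, the members left out, and the share of each list that passed is read against 52% of all tested genes in OE versus EV and 57.5% for KD versus NT. The 22 other mitochondrial proteases and membrane scaffolds gave 4 higher and 7 lower in OE versus EV (median -0.08), against 12 higher and 4 lower in KD versus NT (median 0.22). These are 50% and 72.7% of the list, the first at the background. MIPEP, which trims imported proteins, fell by 0.61 with OE and rose by 0.88 with KD. SPG7, a subunit of an inner membrane protease, fell by 0.43 with OE and rose by 0.30 with KD. The 9 other chaperones tested gave 1 higher and 3 lower in OE versus EV, against 4 higher and 2 lower in KD versus NT, or 44.4% and 66.7%. GRPEL2, a nucleotide exchange factor of HSPA9, fell by 0.62 in KD versus NT, and DNAJC19, a J protein of the import motor, fell by 0.59. With OE they fell by 0.19 and 0.23. Other chaperones of the list rose with KD, among them DNAJC11 (0.60) and GRPEL1, the other nucleotide exchange factor of HSPA9 (0.50), which was named after its value was seen. PPIF, the peptidyl-prolyl isomerase of the matrix, rose by 0.95 in KD versus NT.

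The 26 tested genes of mitochondrial protein import gave 15 higher and 5 lower in OE versus EV (median 0.18) and 13 higher and 4 lower in KD versus NT (median 0.17), beside medians of -0.02 over all genes, and 76.9% and 65.4% of the list passed. The 25 genes that, like TFAM, maintain or transcribe the mitochondrial genome gave 4 higher and 10 lower in OE versus EV, a share of 56% near the background, and 13 higher and 6 lower in KD versus NT (76%). POLRMT, the mitochondrial RNA polymerase that works with TFAM, rose by 0.46 in OE versus EV, where TFAM fell. Among the 13 mRNAs encoded by the mitochondrial genome itself, 4 passed as higher and 0 as lower in OE versus EV, whereas 1 was higher and 10 lower in KD versus NT, with MT-ND3 at -1.0, so 30.8% and 84.6% passed. With TMM scaling, most mRNAs of the mitochondrial genome were thus lower with KD, and TFAM did not pass there. With OE, 0 of them passed as lower and TFAM was at -0.58. That TFAM value shrank to -0.14 (adjusted p = 0.0464) once the GC offset was used. It did not pass when the replicate block was added to the offset (-0.11, 0.141). Whether TFAM had a part in the level of these mRNAs was not tested.

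The 17 regulators of mitochondrial stress and biogenesis gave 9 higher and 5 lower in OE versus EV (82.4% passed) and 7 higher and 6 lower in KD versus NT (76.5%). With the GC offset, OE versus EV gave 7 higher and 2 lower of these regulators, 5 higher and 4 lower of the genome maintenance genes and 11 higher and 0 lower of the mitochondrial mRNAs. Over all 14018 genes of that fit, 4457 were higher and 2870 lower (52.3% passed), so the genes as a whole also leaned to higher. DDIT3, CEBPB and ATF4, which are known to drive stress genes, fell by 2.83, 1.32 and 1.27 in KD versus NT. CEBPB and ATF4 rose by 0.78 and 0.35 in OE versus EV, and DDIT3 did not pass there (0.09, adjusted p = 0.343). Between the controls, ATF4 (-0.38, 1.05e-05) and DDIT3 (-0.68, 3.4e-07) were lower in EV, whereas CEBPB did not pass (-0.10, 0.225). Mean ATF4 was 1167 CPM for NT, 897 for EV and 1145 for OE. For DDIT3 these means were 82.1, 51.3 and 54.5 CPM, and for CEBPB 73.5, 68.4 and 117. HSF1, the heat shock factor, rose by 0.55 with OE and by 0.25 with KD. The 30 cytosolic chaperones gave 9 higher and 8 lower in OE versus EV, a share of 56.7% near the background, and 14 higher and 10 lower in KD versus NT (80%), with HSPA8 at -0.99 and HSP90AA1 at -0.62 in KD versus NT.

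**Figure D4:**
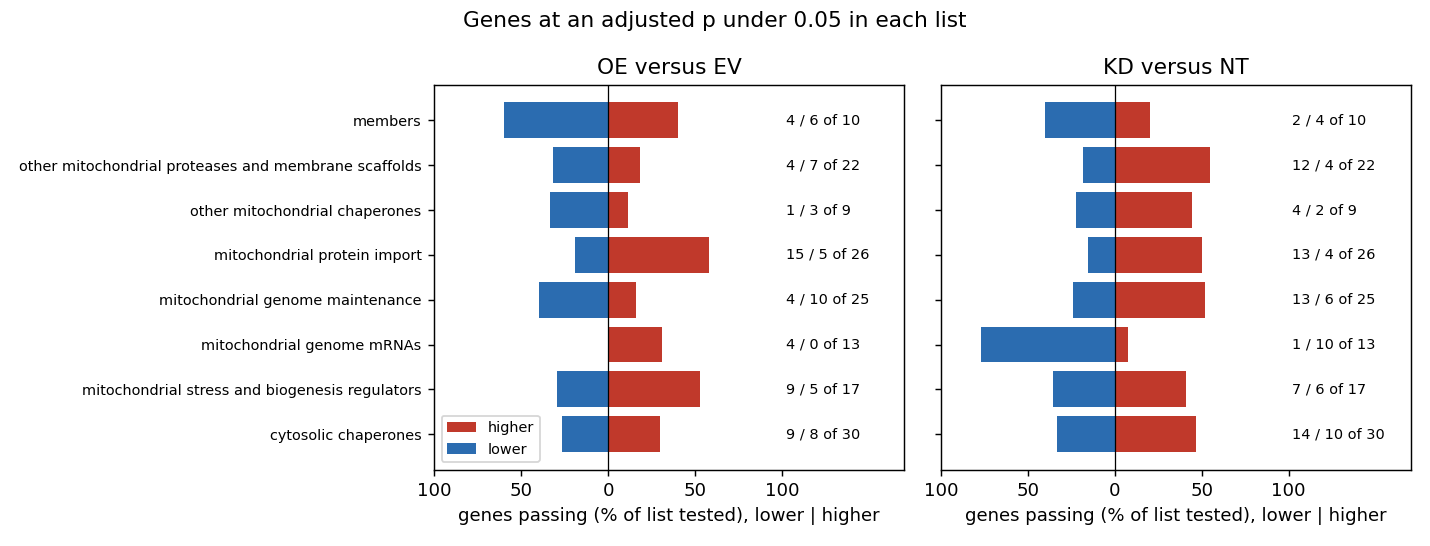
Share of the tested genes of each list that passed at an adjusted p under 0.05 (horizontal axis, percent; higher to the right in red, lower to the left in blue), with the counts higher / lower of tested beside the bars, for OE versus EV and KD versus NT. The members show 4 higher and 6 lower in OE versus EV and 2 higher and 4 lower in KD versus NT, and the mRNAs of the mitochondrial genome 10 of 13 lower in KD versus NT.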

How the data were processed

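RNA of 10 samples was measured by poly(A) mRNA sequencing, paired-end on a NovaSeq. The authors trimmed reads with BBDuk, mapped them with STAR (2.6.0a in the submitters' processing notes) to Ensembl hg38.p12 and deposited whole-number counts per gene for 57353 gene symbols. The treatment of multi-mapping reads and strand is not given in the sources used here. Samples were grouped by line as labelled. Counts were filtered with filterByExpr (17230 genes), scaled with TMM and tested on all 10 samples with 1 mean per line by the quasi-likelihood F test of edgeR 4.0.16 in R 4.3.3, with Benjamini-Hochberg adjustment over all tested genes. SE is the log2 fold change divided by the square root of F. A gene passed at an adjusted p under 0.05, and counts at 0.0001, the study's limit, stand beside it. CPM error is the SD between samples of a line. The common biological coefficient of variation was 0.0446, and total counts of 23555205 to 28615770 make a floor of 3 counts 0.0995 to 0.136 CPM.

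The named genes were the members, CPT1A, the 3 genes with the smallest p of each companion list in the comparisons of OE with EV and of KD with NT, the 3 genes most alike to each member across samples, and pseudogenes and read-throughs of members. The members and lists were chosen with earlier results of these data known. Positions, exon lengths and GC content came from GENCODE v44 on GRCh38, and promoters from RefSeq. Alternatives were DESeq2 1.42.0 size factors and Wald test, limma-voom (limma 3.58.1), scaling by library size alone, testing without a filter or with a minimum of 10 counts per sample, each arm alone, the replicate block, leaving out each sample, and, chosen after the data were seen, an offset for GC content (a spline with 6 degrees of freedom per sample, removed from the log counts). The test was run on simulated data first. Some items of the marker list are not reported here.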

Additional observations from a re-analysis of the deposited data

How the results depend on the processing

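The counts of members passing that moved by over 1.5 times were those in OE versus EV with the GC offset (3, and 3 with the offset and the replicate block, where TRAP1 took the place of TFAM, against 10), and, at an adjusted p under 0.0001, those of the interaction (3 against 9) and of EV versus NT (2 against 6). Leaving out each sample in turn, 9 to 10 members passed in OE versus EV, 6 to 6 in KD versus NT and 6 to 9 in the interaction. The range was 4 to 7 for EV versus NT and 8 to 9 for OE versus KD. The member lost in OE versus EV was HSPE1, without EV replicate 1 (adjusted p = 0.0753).

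The residuals of same-numbered samples had a mean r of -0.00282 over 13 pairs (-0.0443 to 0.0783) and those of other samples 0.00156 over 24 pairs. Such a mean cannot decide whether some samples shared a batch, which was not tested. Chi-square divided by its degrees of freedom was highest in pairs with replicate 2. It was 7.14 and 7.29 in KD, against 2.35 for the other pair, and 4.05 and 4.69 in OE, against 2.23. With the replicate block, 10 members passed in OE versus EV, 6 in KD versus NT, 9 in the interaction and 6 in EV versus NT. For OE versus KD it was 9, where TRAP1 was added (adjusted p = 0.0233).

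Values that changed sign lay between -0.12 and 0.15 after the change, and the cause was not tested. Not all were small before it. With TMM scaling HSPE1 was at -0.28 (adjusted p = 0.00606) in OE versus EV and -0.32 (0.000539) in OE versus KD. TFAM was at -0.23 (0.00739) in EV versus NT. With the GC offset, and with the offset and the block, HSPE1 was at 0.053 and 0.070 in OE versus EV and 0.022 and 0.023 in OE versus KD, CLPX at 0.10 and 0.090 and TFAM at 0.12 and 0.15 in KD versus NT (TFAM adjusted p = 0.0207 with the block), and TRAP1 at -0.018 and -0.018 in OE versus KD. In EV versus NT they gave -0.066 and -0.066 for LONP1, 0.033 and 0.033 for CLPX, 0.0074 and 0.0073 for YME1L1, and 0.013 and 0.013 for TFAM. CLPX in KD versus NT was at 0.0026 with DESeq2 size factors, 0.030 with library size only, 0.0044 with no filter and 0.0024 by the DESeq2 Wald test, and -0.054 to 0.035 leaving out each sample, above 0 without KD replicate 2. With library size only, CLPP was at -0.040 in the interaction, HSPD1 at -0.12 (adjusted p = 0.00489) and TRAP1 at -0.026 in OE versus KD. HSPD1 was at -0.0072 to 0.025 in OE versus KD leaving out each sample, below 0 without KD replicate 2.

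Library size only shifted the median of all genes to -0.12 in OE versus EV, -0.15 in the interaction and -0.15 in OE versus KD, with 3354 genes higher and 5839 lower in OE versus EV against 4411 and 4545 with TMM. The GC offset gave 4457 higher and 2870 lower. Of the member log2 fold changes under all alternatives, 911 kept direction and side of the threshold, 36 no longer passed, 16 newly passed and 27 changed sign.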

Other observations

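Each member was also set beside the genes whose log2 CPM moved most like it over the 10 samples. This is a description without a test, since the samples fall into 4 lines and share libraries, and r near 1 needs little more than a like order of the 4 line means. HSPD1 was most like MAL2 (r = 0.995), ZC3H14 and EIF3M. HSPA9 was most like MAP1B (0.9952), EPRS and XPOT, DNAJA3 like SURF2 (0.9965), and TRAP1 like UQCRC1 (0.9945), a subunit of respiratory complex III. LONP1 was most like ZFAND2B (0.9948), with SLC3A2, an amino acid transporter subunit, among its nearest 3 genes. CLPP was most like TNFRSF1A (0.9964), CLPX like AFG3L1P (0.9917), a pseudogene of the family of membrane proteases, YME1L1 like ZNF415 (0.992), TFAM like HDDC2 (0.9966) and HSPE1 like LAMB1 (0.981), the lowest first value among the members.

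Among the members themselves, HSPD1 and HSPA9 had an r of 0.9461 over the 10 samples, whereas HSPD1 and HSPE1, which share a promoter stretch, had 0.2258. TFAM had 0.9644 with CLPX and 0.9614 with YME1L1, which also have low GC content, and -0.9709 with DNAJA3. CLPP and CLPX, the parts of a shared protease, had -0.8364.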
